A study of Homo sapiens with 14 samples.

Results

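The transporters described here are 10 solute carrier genes of amino acid transport at the plasma membrane: SLC1A3, SLC1A4, SLC1A5, SLC3A2, SLC7A1, SLC7A2, SLC7A5, SLC38A1, SLC38A2 and SLC43A1. They were chosen by name, matched through the GENCODE release 44 annotation, out of 60683 gene identifiers in the count tables. RNA sequencing covered 7 groups of 2 libraries, 14 libraries in all. A549, a lung cancer line grown in RPMI medium, was left untreated, given 2 µM palbociclib for 10 days, 0.5 µM indisulam for 10 days, both drugs for 10 days (the combination), or 0.5 µM PF-06873600 for 7 days. SUM159, a triple-negative breast cancer line grown in DMEM/F12 medium with insulin and hydrocortisone, was left untreated or given 0.5 µM PF-06873600 for 7 days. Palbociclib inhibits the cell cycle kinases CDK4 and CDK6, and indisulam causes the degradation of the splicing factor RBM39. PF-06873600 inhibits CDK2 together with CDK4 and CDK6, and the study states that it acts on CDK1 as well. The study's question was what blocking CDK2 adds to blocking CDK4/6. How long the untreated cells were kept before harvest is not given in the sources used here. The study describes A549 as lacking p16, an inhibitor of CDK4 and CDK6. Each line stands for 1 model of its cancer, and the line and its medium cannot be told apart. The study describes the 2 libraries of a group as technical duplicates, so every p-value below measures only the spread between these libraries.

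Cells take up amino acids through carriers with overlapping substrates. SLC7A5 (LAT1) exchanges large neutral amino acids such as leucine and is held at the plasma membrane by the heavy chain SLC3A2 (CD98hc), while SLC43A1 (LAT3) carries branched-chain amino acids without a heavy chain. SLC1A5 (ASCT2) and SLC1A4 (ASCT1) exchange small neutral amino acids, SLC1A5 with glutamine as a main substrate, and SLC1A3 (EAAT1) takes up glutamate and aspartate. SLC7A1 (CAT-1) and SLC7A2 (CAT-2) carry the cationic amino acids arginine and lysine. SLC38A1 (SNAT1) and SLC38A2 (SNAT2) bring in small neutral amino acids and glutamine with sodium. Several of these genes are targets of ATF4, the transcription factor of the amino acid response, which binds a composite element in promoters and introns. Proliferating tumour cells are known for high SLC7A5 and SLC1A5.

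The libraries held 13060374 to 21149256 counts assigned to genes. A count of 0 allows up to 3 counts, which is 0.142 to 0.23 CPM (a gene's counts per 1000000 gene counts of its library). The 2 untreated libraries of A549 differed from each other more than those of any other A549 group, their chi-square divided by its degrees of freedom being 9.57 against 1.61 to 5.04 (9.05 in untreated SUM159). Of the epithelial markers, KRT8 (1908 to 5680 CPM), KRT18 (2389 to 5467) and CDH1 (93.1 to 172) were higher in A549 than in SUM159 (260 to 433, 166 to 321 and at most 0.818). EPCAM was also higher in A549 (7.73 to 26.4 CPM, at most 0.844 in SUM159). KRT7 was lower in untreated A549 (902 to 1062) than in untreated SUM159 (1833 to 1922). The lung markers NKX2-1, SFTPB and SFTPC were at most 0.451 CPM, while the lung marker NAPSA reached 3.69 CPM in A549 and 0.468 in SUM159. SUM159 had ESR1 at most 0.662 CPM and PGR at 0, as its triple-negative label implies. ERBB2 stood at 118 to 130 CPM there and at 109 to 166 in A549. VIM stood at 3609 to 4318 CPM in SUM159 and at 628 to 1792 in A549. GATA3 (5.89 to 6.84 CPM) and KRT5 (0.603 to 4.82) were higher in SUM159 than in A549 (at most 3.41 and 0.186). Of the 4 markers of cells a culture should not hold, PTPRC reached 9.35 to 20.3 CPM, PECAM1 10.9 to 27.6 and COL1A1 1599 to 3257 in SUM159, with CD68 at most 0.189; in A549 the same markers reached at most 0.557, 1.6, 73.7 and 0.901. Their part in the results was not tested.

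To show what the promoters of these genes share, the sequences around the RefSeq starts (assembly GRCh38.p14) were searched for TGATGNAA, the core of the composite ATF4 and C/EBP element, on either strand from 250 bases before to 50 after a start. Of the 10 genes, 9 were searched, SLC7A2 being left out. These 9 genes had 18 starts, and 6 of those starts, each in a different gene, held the core, against 1270 of 35116 promoters (3.62%). The 6 windows are shown 5′ to 3′ on the gene's strand with the core in capitals.
SLC1A3, chr5:36596357-36596386, plus strand: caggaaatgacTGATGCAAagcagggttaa
SLC1A4, chr2:64989381-64989410, plus strand: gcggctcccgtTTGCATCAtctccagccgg
SLC1A5, chr19:46784893-46784922, minus strand: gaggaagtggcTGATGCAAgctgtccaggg
SLC3A2, chr11:62881725-62881748, plus strand: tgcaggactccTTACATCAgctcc
SLC7A1, chr13:29595663-29595692, minus strand: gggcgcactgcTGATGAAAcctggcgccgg
SLC38A1, chr12:46266502-46266531, minus strand: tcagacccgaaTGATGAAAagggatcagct
The first base of the core lay at -220 from the start in SLC1A3, at -7 in SLC1A4, at -97 in SLC1A5, at 37 in SLC3A2, at 7 in SLC7A1 and at -4 in SLC38A1. In SLC1A4, SLC1A5, SLC3A2 and SLC38A1 it lay at an alternative start within the gene. No match was found in the windows of SLC7A5, SLC38A2 and SLC43A1.

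SLC7A5 and SLC43A1, the genes with the most opposite responses below, are shown with the 150 bases before a start, because both hold the E-box CACGTG, a palindrome bound by basic helix-loop-helix factors such as MYC. This motif was chosen after the sequences had been seen. It stood at 3 of the 18 starts (the other in SLC1A5) and in 2548 of 35116 promoters (7.26%), and is given in capitals.
SLC7A5, chr16:87869508-87869657, minus strand: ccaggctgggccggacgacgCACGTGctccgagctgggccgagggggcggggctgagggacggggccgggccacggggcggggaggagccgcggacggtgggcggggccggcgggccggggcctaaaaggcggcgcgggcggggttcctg
SLC43A1, chr11:57515703-57515852, minus strand: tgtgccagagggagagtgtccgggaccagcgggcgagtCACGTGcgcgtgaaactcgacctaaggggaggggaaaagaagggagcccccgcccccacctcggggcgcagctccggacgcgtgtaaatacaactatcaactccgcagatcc
The G and C share of these 150 bases was 82.7% in SLC7A5 and 64% in SLC43A1. A match says only that the letters are there.

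Levels between genes were compared as CPM per kilobase of exon. In untreated A549 SLC1A5 stood first at a mean of 250 CPM per kilobase, followed by SLC7A5 at 164 and SLC38A2 at 102. SLC38A1 (64.4) and SLC3A2 (55.5) overlapped between their libraries, and SLC7A1 (24.8), SLC43A1 (10.4), SLC1A4 (10.0) and SLC7A2 (4.35) came below. SLC1A3 had no count in either untreated A549 library. In untreated SUM159 the first place belonged to SLC38A2 (158 CPM per kilobase), then SLC7A5 (101), SLC1A5 (90.0), SLC38A1 (62.5), SLC7A1 (29.8) and SLC3A2 (27.3), with SLC7A2 (15.2), SLC1A3 (1.91), SLC43A1 (1.51) and SLC1A4 (0.643) at the bottom. With the longest transcript as the length, SLC3A2 moved up to rank 4 in A549 and rank 5 in SUM159. The order changed with treatment: in the combination SLC7A5 led with 215 CPM per kilobase and SLC1A5 had come down to 76.97, and in SUM159 given PF-06873600 SLC7A5 was at rank 5 with 20.5. Together the 10 genes made up 3681 and 3540 CPM in untreated A549, 2591 and 2625 in the combination and 2607 and 2654 under PF-06873600. In SUM159 their sum was 3050 and 2964 CPM without drug and 1882 and 1904 with it. In bulk RNA, fewer cells of a type and less RNA per cell cannot be told apart.

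**Figure D1:**
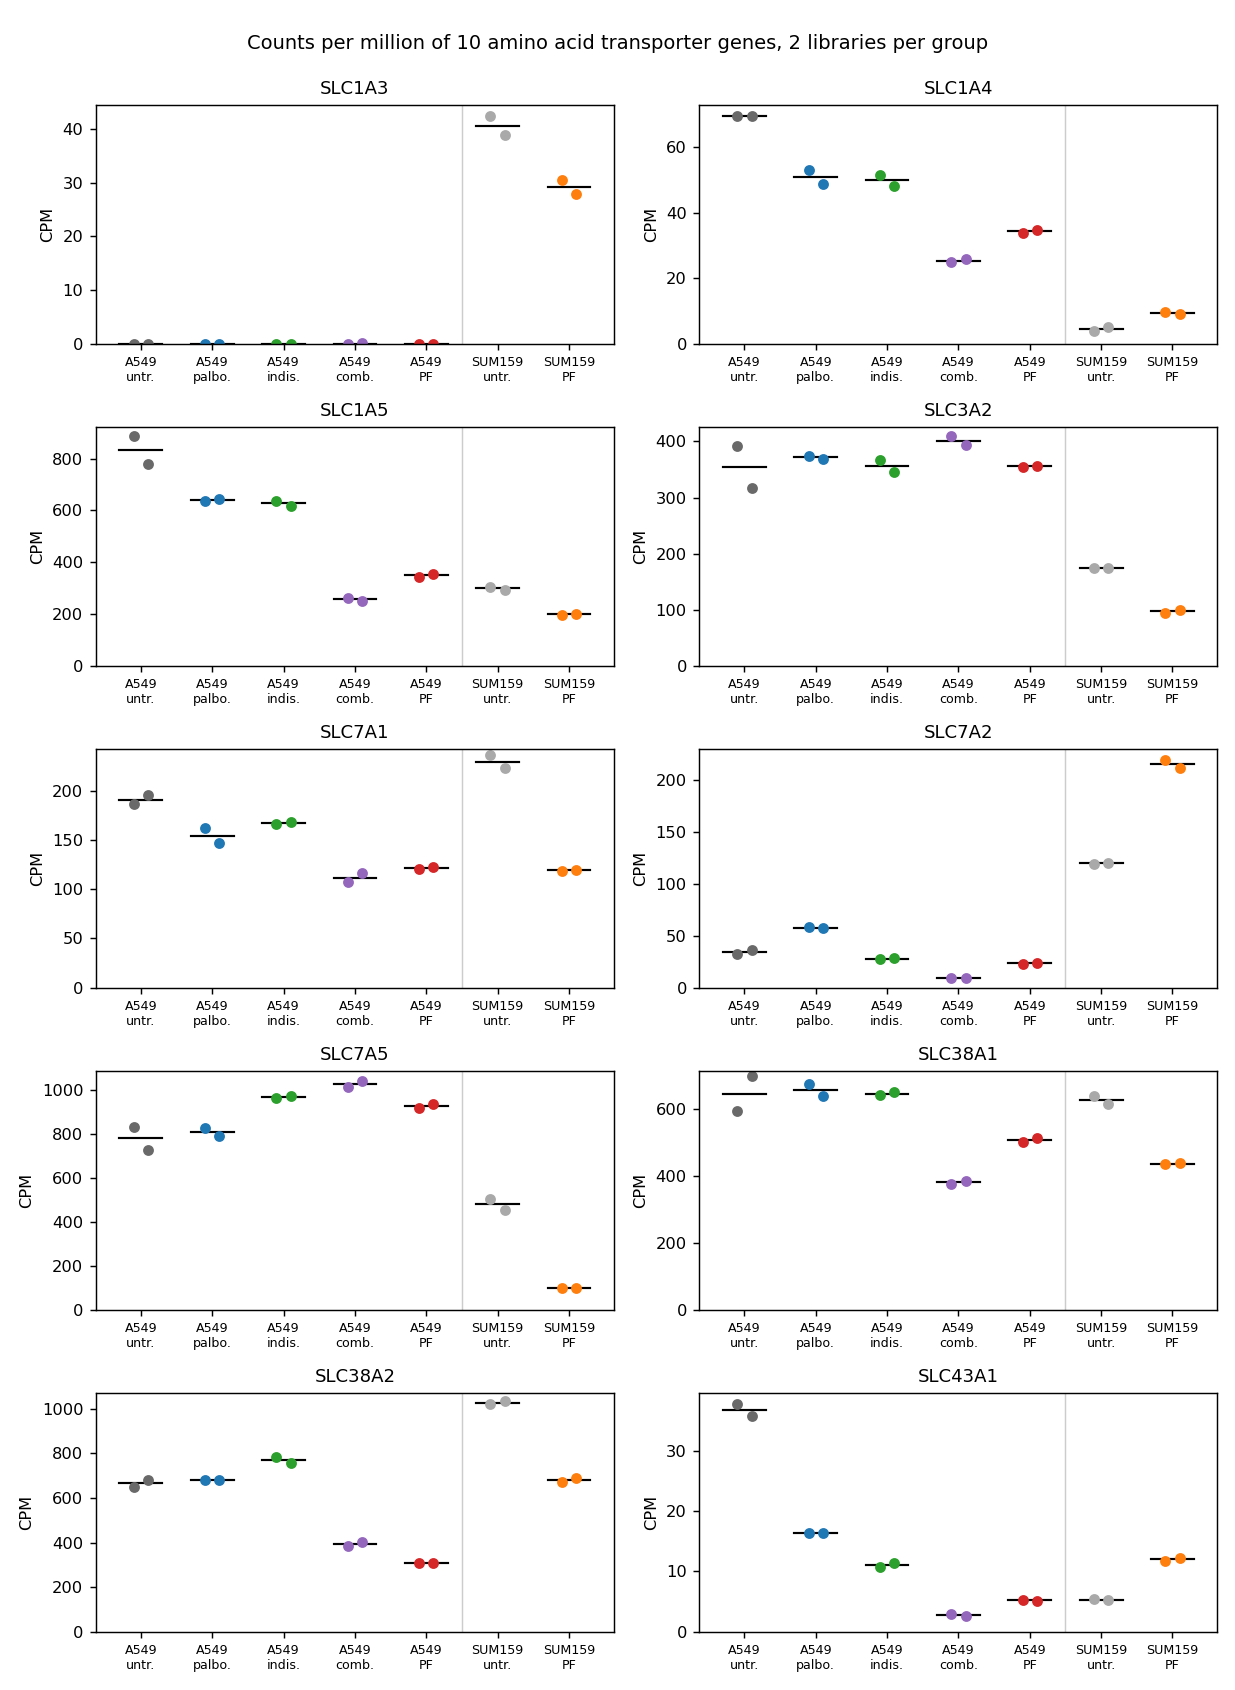
CPM of each of the 10 genes (y axis, linear from 0, own scale per panel) in the 7 groups (x axis); points are the 2 libraries of a group and the line is their mean. SLC7A5 is highest in the A549 combination (1012 and 1039 CPM) and lowest in SUM159 given PF-06873600 (97.5 and 97.97), and SLC1A3 is seen in SUM159 alone but for 1 count in 1 combination library.

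All comparisons used edgeR's quasi-likelihood test over every gene that passed the filter on low counts, 15780 genes in A549 and 15055 in SUM159, with a gene called at an adjusted p under 0.05. Of the 10 transporters, 9 passed that filter in A549 and 10 in SUM159. The A549 comparisons share the same 2 untreated libraries and so are not independent of each other. Palbociclib left 1 transporter higher and 4 lower, where 8.3% of all genes were called higher and 7.4% lower. With indisulam 2 were higher and 5 lower, against 28% and 17.5% of all genes. Of the genes called with indisulam 61.6% were higher, and 50.4% with TMM scaling. The combination left 1 higher and 7 lower, against 35.1% and 30%, and PF-06873600 in A549 also 1 higher and 7 lower, against 28.5% and 27.8%. In SUM159 PF-06873600 left 3 higher and 7 lower, against 38.1% and 35.6%. The median log2 change of the tested transporters was 0.02 with palbociclib, -0.19 with indisulam, -0.77 in the combination, -0.65 with PF-06873600 in A549 and -0.56 in SUM159, beside medians over all genes of -0.01, 0.08, 0.05, -0.01 and 0.02.

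**Figure D2:**
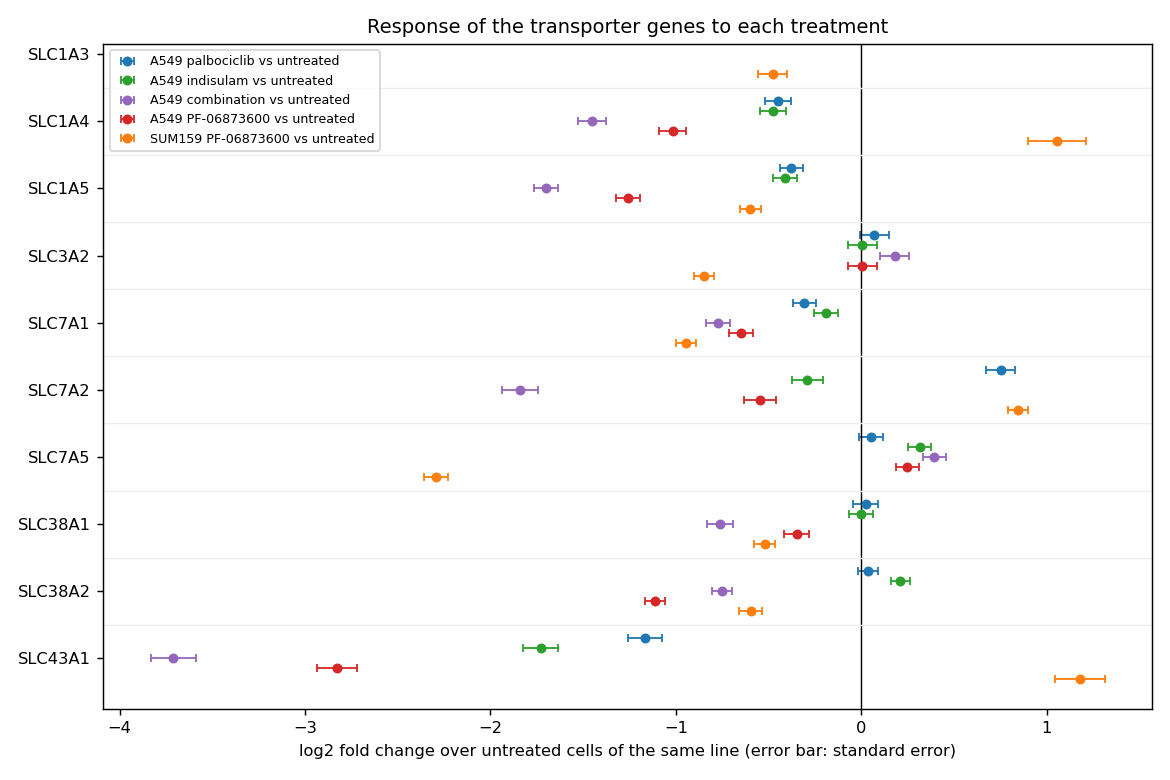
Log2 fold change over untreated cells of the same line (x axis) of each transporter gene (y axis) for 5 comparisons, with its standard error; SLC1A3 has a value in SUM159 only. SLC43A1 reaches -3.71 in the A549 combination and 1.18 in SUM159 given PF-06873600, and SLC7A5 0.39 and -2.29 in the same comparisons.

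SLC7A5 rose in A549 with indisulam, the combination and PF-06873600, and fell in SUM159. The gene lies on chromosome 16 (87830023 to 87869507, minus strand, GRCh38). Its libraries held 833 and 727 CPM in untreated A549, 826 and 791 with palbociclib, 964 and 974 with indisulam, 1012 and 1039 in the combination and 919 and 934 with PF-06873600. The indisulam, combination and PF-06873600 libraries all lay above the untreated ones, while the palbociclib libraries overlapped them. SLC7A5 rose by 0.31 ± 0.06 on the log2 scale with indisulam (SE, n = 2 against 2, as in all values below; edgeR adjusted p = 0.000974), by 0.39 ± 0.06 in the combination (6.53e-05) and by 0.25 ± 0.06 with PF-06873600 (0.00362). The last value was 0.15 without untreated replicate 2. The palbociclib value was 0.05, with a 95% interval of -0.08 to 0.19. In SUM159 SLC7A5 went from 503 and 456 CPM to 97.5 and 97.97, a 4.9-fold fall (log2 -2.29 ± 0.06, edgeR adjusted p = 3.08e-13). Both treated libraries lay far below both untreated ones, and SLC7A5 had the largest fall of the 10 genes in that line.

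SLC3A2, the heavy chain that SLC7A5 needs at the membrane, showed no called change in A549. It lies on chromosome 11 (62856004 to 62888880, plus strand). The untreated A549 libraries stood apart at 392 and 317 CPM, and all treated libraries but 2 fell between them: 375 and 369 with palbociclib, 367 and 345 with indisulam and 355 and 356 with PF-06873600. The 2 combination libraries, at 410 and 393, were above both. Its log2 difference in the combination was 0.18 (95% interval 0.01 to 0.35, edgeR adjusted p = 0.0569). Which untreated library was used decided these values. Without untreated replicate 1 SLC3A2 was called higher with palbociclib (0.23), indisulam (0.17), the combination (0.34) and PF-06873600 (0.17), and without untreated replicate 2 it was called lower with indisulam (-0.14, adjusted p = 0.045) and PF-06873600 (-0.14, adjusted p = 0.0351). In SUM159 SLC3A2 fell from 174 and 175 CPM to 94.4 and 99.0 (log2 -0.85 ± 0.05, adjusted p = 2.04e-09). The level of SLC7A5 per kilobase was 2.85 and 3.07 times that of SLC3A2 in untreated A549 and 3.31 and 3.54 times in the combination. In SUM159 the ratio was 3.88 and 3.50 without drug and 1.39 and 1.33 with PF-06873600, so the light chain fell further than the heavy chain. These ratios depended on the length used. With the longest transcript they were 1.33 and 1.43 in untreated A549 and 1.54 and 1.65 in the combination. In SUM159 they were then 1.81 and 1.63 without drug and 0.644 and 0.617 with PF-06873600.

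SLC43A1, the heavy-chain-independent carrier of branched-chain amino acids, had the largest falls of the transporters in A549. It lies on chromosome 11 (57484534 to 57515780, minus strand). Its libraries held 37.8 and 35.7 CPM without drug, 16.4 and 16.4 with palbociclib, 10.7 and 11.4 with indisulam, 2.98 and 2.64 in the combination and 5.28 and 5.07 with PF-06873600. No treated library reached the untreated range. The fall was 2.24-fold with palbociclib (log2 -1.17 ± 0.09, edgeR adjusted p = 1.29e-06), 3.32-fold with indisulam (-1.73 ± 0.10, 4.13e-09), 13.1-fold in the combination (-3.71 ± 0.12, 2.86e-12) and 7.1-fold with PF-06873600 (-2.83 ± 0.11, 4e-11). In SUM159 it started near the A549 PF-06873600 level, at 5.37 and 5.26 CPM, and rose to 11.8 and 12.3 (log2 1.18 ± 0.13, adjusted p = 1.5e-06).

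The neutral exchangers SLC1A5 and SLC1A4 fell with every drug in A549. SLC1A5, on chromosome 19 (46774883 to 46788594, minus strand), had 888 and 780 CPM without drug, 637 and 646 with palbociclib, 635 and 619 with indisulam, 263 and 250 in the combination and 341 and 356 with PF-06873600. Every treated library was below both untreated ones. On the log2 scale SLC1A5 changed by -0.38 ± 0.06 with palbociclib (edgeR adjusted p = 0.000879), -0.41 ± 0.06 with indisulam (0.000105), -1.70 ± 0.06 in the combination (1.61e-11) and -1.26 ± 0.06 with PF-06873600 (7.33e-10). SLC1A4, on chromosome 2 (64988477 to 65023865, plus strand), went from 69.5 and 69.3 CPM to 52.9 and 48.9 with palbociclib, 51.6 and 48.2 with indisulam, 24.9 and 25.9 in the combination and 33.9 and 34.7 with PF-06873600. Its log2 changes were -0.45 ± 0.07, -0.48 ± 0.07, -1.45 ± 0.08 and -1.02 ± 0.07 in that order, with edgeR adjusted p from 0.000506 down to 4.13e-10. In SUM159 the exchangers parted. SLC1A5 fell from 306 and 294 CPM to 196 and 199.96 (log2 -0.60 ± 0.06, adjusted p = 1.3e-07), while SLC1A4 rose from 3.98 and 4.95 CPM to 9.65 and 8.94 (1.06 ± 0.16, adjusted p = 2.49e-05).

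SLC1A3, the glutamate and aspartate carrier, separated the lines. It lies on chromosome 5 (36596588 to 36688334, plus strand). A549 held 1 SLC1A3 count in 10 libraries, in combination replicate 2, so the gene was tested in SUM159 alone for a drug effect. Untreated SUM159 had 42.4 and 38.9 CPM, at least 201-fold higher than untreated A549, whose mean limit of 3 counts per library was 0.202 CPM. With PF-06873600 the SUM159 libraries held 30.6 and 27.9 CPM, both below the untreated ones (log2 -0.48 ± 0.08, edgeR adjusted p = 6.13e-05).

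The cationic carriers SLC7A1 and SLC7A2 moved apart with palbociclib and in SUM159. SLC7A1, on chromosome 13 (29509414 to 29595688, minus strand), held 186 and 196 CPM in untreated A549, 162 and 147 with palbociclib, 166 and 168 with indisulam, 107 and 116 in the combination and 120 and 123 with PF-06873600. All treated libraries lay below the untreated ones. SLC7A1 changed by -0.77 ± 0.06 in the combination (edgeR adjusted p = 8.12e-08) and by -0.65 ± 0.06 with PF-06873600 (8.12e-07). Its smaller changes, -0.31 with palbociclib (adjusted p = 0.00438) and -0.19 with indisulam (0.0236), were not called in a fit of only the compared groups (0.0673 and 0.0845). The first was also lost without palbociclib replicate 2 (0.0786), and the other without untreated replicate 2 (0.0595), indisulam replicate 1 (0.108) or indisulam replicate 2 (0.0811). In SUM159 SLC7A1 fell from 236 and 223 CPM to 119 and 120 (log2 -0.94 ± 0.06, adjusted p = 7.85e-10).

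SLC7A2, on chromosome 8 (17497088 to 17570573, plus strand), was the transporter that palbociclib raised. Its libraries held 32.2 and 36.5 CPM without drug and 58.2 and 57.5 with palbociclib, a 1.68-fold rise (log2 0.75 ± 0.08, edgeR adjusted p = 1.79e-05). The other drugs moved it the other way. Indisulam gave 27.5 and 28.7 CPM, the combination 9.57 and 9.59, and PF-06873600 22.8 and 24.2, each group below the untreated libraries. The combination value was a 3.59-fold fall (-1.84 ± 0.10, adjusted p = 5.27e-10) and the PF-06873600 value a 1.46-fold fall (-0.55 ± 0.09, adjusted p = 8.14e-05). The indisulam value of -0.29 (0.0114) was not called in a fit of only the compared groups (0.0653) or without untreated replicate 2 (0.0884) or indisulam replicate 1 (0.076). In SUM159 SLC7A2 rose from 119 and 120 CPM to 219 and 212 (log2 0.84 ± 0.05, adjusted p = 2.13e-09).

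The sodium-coupled carriers SLC38A1 and SLC38A2, neighbours on chromosome 12 (46183063 to 46270017 and 46358188 to 46372773, both on the minus strand), fell in the combination and with PF-06873600. SLC38A1 held 594 and 696 CPM in untreated A549, 673 and 638 with palbociclib, 639 and 649 with indisulam, 376 and 385 in the combination and 501 and 512 with PF-06873600. The single-drug libraries of palbociclib and indisulam lay within the untreated range, and their log2 values had 95% intervals of -0.12 to 0.17 and -0.15 to 0.14. SLC38A1 fell by 0.76 on the log2 scale in the combination (SE 0.07, edgeR adjusted p = 1.74e-07) and by 0.35 with PF-06873600 (SE 0.07, 0.000499), the last being -0.23 without untreated replicate 2. SLC38A2 held 648 and 683 CPM without drug, 683 and 682 with palbociclib, 786 and 755 with indisulam, 386 and 404 in the combination and 309 and 308 with PF-06873600. PF-06873600 gave its lowest A549 libraries, with a log2 change of -1.11 ± 0.05 (adjusted p = 4.54e-10) beside -0.75 ± 0.05 in the combination (1.44e-08). Its rise with indisulam (0.21, adjusted p = 0.00487) was 0.13 with TMM scaling (0.0678) and was also lost with DESeq2 (0.0693), in a fit of only the compared groups (0.0626) and without indisulam replicate 1 (0.0531). In SUM159 SLC38A1 fell from 639 and 613 CPM to 434 and 438 (log2 -0.52 ± 0.06), and SLC38A2 from 1021 and 1034 to 670.1 and 689 (-0.60 ± 0.06).

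The combination was then set against each drug alone and against the sum of both on the log2 scale, an interaction term. Against palbociclib 1 transporter, SLC7A5 (0.34, 95% interval 0.21 to 0.48), was higher and 7 were lower (33.5% and 26.9% of all genes). Against indisulam 0 were higher and 7 lower (22% and 23.9%). The interaction was negative for 7 transporters and positive for 0, beside 14.5% and 10.7% of all genes. Against indisulam 1 transporter, SLC3A2, was higher at an unadjusted p (0.0436 by edgeR), and DESeq2 called that 1 higher (adjusted p = 0.0406). With untreated replicate 1 or 2 left out, edgeR called SLC3A2 higher than with palbociclib (adjusted p = 0.0344 and 0.0346) and than with indisulam (0.00272 and 0.00278). For the interaction neither of the other 2 transporters had an unadjusted edgeR p under the threshold, and DESeq2 called none higher. SLC7A2 departed most from the sum: the single drugs added up to 0.46 and the combination gave -1.84, an interaction of -2.30 ± 0.13 (edgeR adjusted p = 1.56e-08). SLC38A2 and SLC38A1 had single-drug sums of 0.25 and 0.02 and interactions of -0.998 ± 0.075 (2.68e-07) and -0.78 ± 0.10 (3.09e-05). The neutral exchangers had interactions of -0.91 ± 0.09 for SLC1A5 (4.03e-06) and -0.52 ± 0.10 for SLC1A4 (0.0018). SLC43A1 had the deepest sum, -2.90, and still an interaction of -0.81 ± 0.17 (0.00297). The SLC7A1 interaction of -0.28 (0.0375) was lost with DESeq2 (0.124), in a fit of only the compared groups (0.065) and without any of 6 libraries, with adjusted p of 0.0679 to 0.177. These were palbociclib replicate 1, combination replicate 1 and both libraries of indisulam and of PF-06873600. SLC7A5 and SLC3A2 had interactions of 0.03 (95% interval -0.16 to 0.22) and 0.10 (-0.13 to 0.34), neither called, although SLC3A2 reached 0.25 (adjusted p = 0.00987) without untreated replicate 2 and -0.06 without untreated replicate 1.

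**Figure D3:**
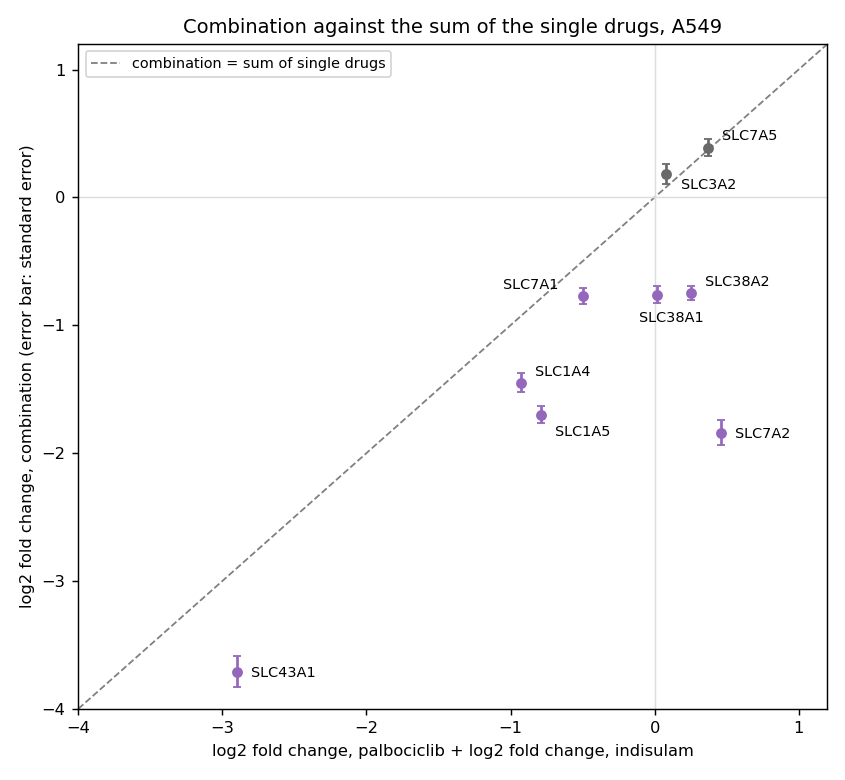
Log2 fold change in the A549 combination over untreated cells (y axis, with standard error) against the sum of the log2 fold changes of palbociclib and indisulam alone (x axis) for 9 transporters; the dashed line is equality, purple points had a called interaction and grey points did not. SLC7A2 lies furthest below the line (0.46 against -1.84), and SLC7A5 (0.37 against 0.39) lies on it.

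Palbociclib and PF-06873600 both inhibit CDK4/6 but were given at different doses and for different times, so their values are only set side by side. SLC43A1 stood at -1.17 with palbociclib and -2.83 with PF-06873600, SLC1A5 at -0.38 and -1.26, SLC38A2 at 0.04 and -1.11, and SLC7A2 at 0.75 and -0.55. The palbociclib and PF-06873600 libraries did not overlap for any of these 4 genes.

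Without drug a difference between the lines was called for 9 transporters, SLC38A1 being the exception. In a fit over both lines (17279 genes) 4 were higher and 5 lower in SUM159, against 41.9% and 36.8% of all genes. SLC1A4 was 15.6-fold lower in SUM159 (log2 -3.96 ± 0.10, edgeR adjusted p = 2.03e-17), SLC43A1 6.91-fold lower, SLC1A5 2.78-fold, SLC3A2 2.04-fold and SLC7A5 1.63-fold. SLC7A2 was 3.49-fold higher (1.80 ± 0.07, adjusted p = 5.72e-15), SLC38A2 1.54-fold and SLC7A1 1.2-fold, besides SLC1A3. The SLC7A1 difference of 0.27 was 0.16 with TMM scaling (adjusted p = 0.0309). SLC38A1 differed by -0.04 (95% interval -0.18 to 0.09), and by -0.15 (adjusted p = 0.0177) without A549 untreated replicate 1.

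The same dose and time of PF-06873600 allowed the response itself to be compared between the lines. The difference, SUM159 response minus A549 response, was positive for 5 and negative for 3 of 9 transporters, against 25.8% and 27.2% of all genes. The sign of the response was opposite in the lines for SLC43A1 (-2.83 in A549 and 1.18 in SUM159, difference 4.01 ± 0.16, edgeR adjusted p = 2.9e-13), SLC1A4 (difference 2.07 ± 0.15, 7.29e-10), SLC7A2 (1.39 ± 0.10, 5.22e-10) and SLC7A5 (-2.54 ± 0.09, 1.16e-13). SLC1A5 and SLC38A2 fell in both lines, by less in SUM159 (differences 0.66 ± 0.09 and 0.51 ± 0.07). SLC3A2 differed by -0.85 ± 0.11 (1.29e-06). The SLC7A1 difference of -0.29 (0.00719) was not called by DESeq2 (0.0536). SLC38A1 differed by -0.17 (95% interval -0.37 to 0.02, adjusted p = 0.119), and by -0.29 (0.00175) without A549 untreated replicate 2.

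**Figure D4:**
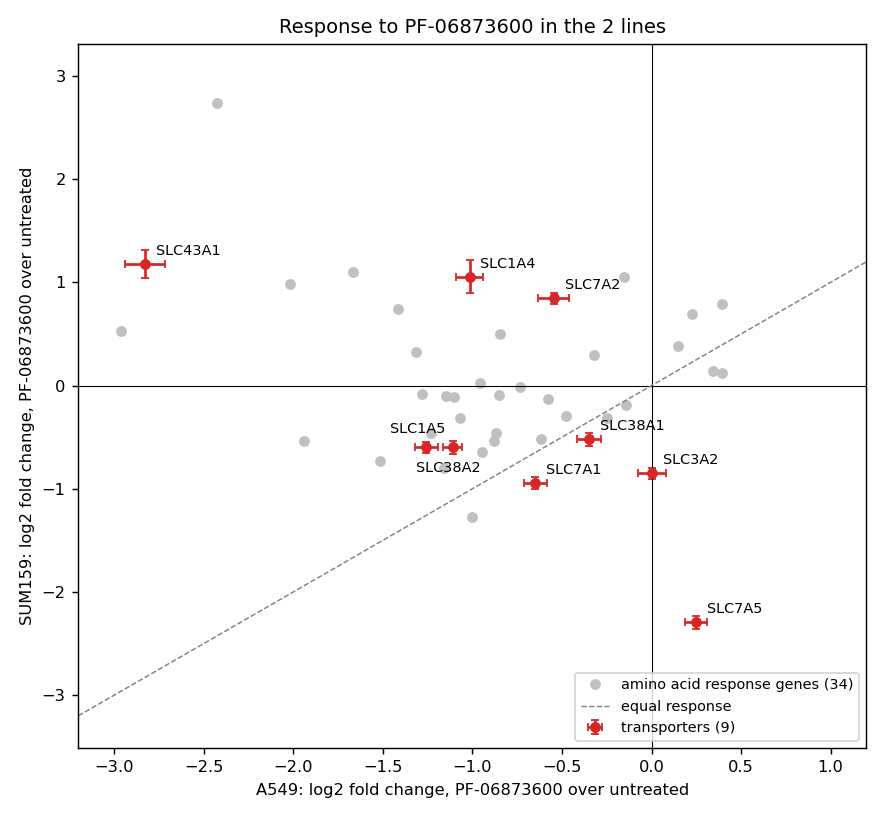
Log2 fold change with PF-06873600 in SUM159 (y axis) against that in A549 (x axis), for 9 transporters (red, with standard errors) and 34 genes of the amino acid response (grey); the dashed line is equal response. SLC7A5 lies at 0.25 and -2.29 and SLC43A1 at -2.83 and 1.18, on opposite sides of the line.

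The amino acid response, the program through which GCN2 (EIF2AK4) and ATF4 switch on amino acid synthesis, aminoacyl-tRNA synthetases and transporters, was followed in a list of 35 genes. Most of them were lower in treated A549: 24 with palbociclib (1 higher; median log2 -0.31), 27 with indisulam (2 higher; -0.44), 29 in the combination (5 higher; -1.05) and 28 with PF-06873600 (4 higher; -0.95). Over all genes 7.4%, 17.5%, 30% and 27.8% were lower in that order. The medians over all genes are those given above. In a fit of only the compared groups palbociclib left 13 lower. In the combination PHGDH, the first enzyme of serine synthesis, fell from 319 and 289 CPM to 44.5 and 40.7 (log2 -2.84 ± 0.07). CBS, of the transsulfuration route, fell from 11.8 and 11.9 CPM to 1.42 and 1.87 (-2.83 ± 0.17), and the pseudokinase TRIB3 from 198 and 168 to 51.9 and 48.2 (-1.87 ± 0.08). The risers were led by the stress transcription factor ATF3, from 9.52 and 9.87 CPM to 55.8 and 59.5 (2.57 ± 0.10), then CEBPB (0.67 ± 0.09) and the secreted glycoprotein STC2 (0.60 ± 0.06), all 6 of these with edgeR adjusted p under the threshold.

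In SUM159 given PF-06873600, 12 of the 34 tested response genes were higher and 13 lower (median log2 -0.09), close to the 38.1% and 35.6% of all genes. Among called genes whose higher group had 10 CPM or more on average, NUPR1, a stress-induced chromatin protein, rose most. It went from 3.02 and 3.63 CPM to 21.3 and 22.9 (log2 2.74 ± 0.14), followed by VLDLR (1.05 ± 0.13) and CEBPB (0.79 ± 0.08). The largest falls were those of DDIT4, an inhibitor of mTORC1 signalling, from 280.2 and 277 CPM to 108 and 123 (-1.27 ± 0.06), the tRNA exporter XPOT (-0.80 ± 0.06) and the serine synthesis enzyme PSAT1 (-0.73 ± 0.07). SUM159 minus A549, the PF-06873600 response differed with a positive sign for 28 of 35 genes and a negative one for 3. Over all genes the shares were 25.8% and 27.2%. The negative count was 0 with TMM scaling or DESeq2, and smaller in some fits without a library. No fit gave a positive count above the reported 28, and some gave fewer. The median difference ran from 0.67 to 0.81 over 21 fits, the alternatives included.

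Of 31 other amino acid transporters of the plasma membrane, 13 passed the filter in A549 and 11 in SUM159. In the combination 6 were higher and 5 lower, beside 35.1% and 30% of all genes. Their median log2 change was 0.05, as over all genes, but ran from -0.15 to 1.04 over 17 fits, the alternatives included. Both counts changed with the fit. SLC43A2 (LAT4), a close relative of SLC43A1, rose from 2.45 and 2.67 CPM to 23.1 and 23.6 (log2 3.19 ± 0.13, edgeR adjusted p = 4.36e-11) while SLC43A1 fell. The glutamate carrier SLC1A1 (0.74 ± 0.08) and the arginine and leucine exchanger SLC7A6 (0.56 ± 0.09), a further partner of SLC3A2, also rose. SLC7A11, the cystine and glutamate exchanger that also pairs with SLC3A2, fell from 426 and 503 CPM to 117 and 115 (-2.002 ± 0.072, adjusted p = 7.21e-12). The glycine carrier SLC6A9 (-1.47 ± 0.10) and the taurine carrier SLC6A6 (-1.17 ± 0.09) fell as well. In SUM159 given PF-06873600, 5 were higher and 4 lower, beside 38.1% and 35.6% of all genes. Their median log2 change was 0.56, beside 0.02 over all genes, but ran from 0.04 to 2.04 over 10 fits, the alternatives included. The counts changed with the fit too. SLC43A2 rose there too, from 7.30 and 8.08 CPM to 60.6 and 62.5 (3.001 ± 0.088), and SLC1A1 by 0.56 ± 0.07, while SLC7A11 (-0.93 ± 0.07), SLC7A6 (-0.67 ± 0.06) and SLC6A6 (-0.19 ± 0.06) fell. SLC7A6 differed in sign between the lines with the same drug too, at 0.46 with PF-06873600 in A549 (adjusted p = 0.000621; difference between the lines -1.14 ± 0.12, 1.68e-07).

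Carriers of the lysosome and mitochondria were listed as a contrast with the cell surface, 21 genes of which 17 passed the filter in A549 and 19 in SUM159. In the combination 7 were higher and 5 lower (median log2 0.18), near the 35.1% and 30% of all genes. SFXN3, a sideroflexin, rose from 61.8 and 53.2 CPM to 123 and 121 (log2 1.09 ± 0.08), the lysosomal carriers SLC66A1 and SLC15A4 rose by 0.98 ± 0.13 and 0.80 ± 0.08, and SFXN2 fell from 10.9 and 9.93 CPM to 2.13 and 1.35 (-2.59 ± 0.20). SLC25A13 (-0.52 ± 0.08), an aspartate and glutamate carrier, and SLC25A44 (-0.37 ± 0.07), a branched-chain amino acid carrier, also fell. In SUM159 given PF-06873600, 8 were higher and 8 lower (median log2 -0.02), beside 38.1% and 35.6% of all genes. SLC25A29, a mitochondrial carrier of basic amino acids, rose from 8.87 and 12.02 CPM to 36.5 and 37.1 (1.82 ± 0.11), and SLC38A7 (0.97 ± 0.08) and SLC66A1 (0.68 ± 0.10) rose. SLC25A15, the ornithine carrier, fell from 54.6 and 51.1 CPM to 19.6 and 22.0 (-1.34 ± 0.08), with SFXN2 (-0.84 ± 0.12) and the serine carrier SFXN1 (-0.82 ± 0.06).

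Across the 10 A549 libraries, which fall into 5 treatment groups, the genes most like SLC7A5 in log2 CPM among 9620 genes were NOTCH1 (Pearson r 0.982), CDC42BPG (0.98) and NSMF (0.979). Its partner SLC3A2 came at rank 2949 with r = 0.514. For SLC3A2 the most similar were FAAP100 (0.972), CRTC1 (0.918) and ZNF865 (0.909), and SLC7A5 was at rank 984. SLC3A2 had no called change in A549, and its untreated libraries, at 392 and 317 CPM, spanned all treated libraries except those of the combination. Its r values therefore also carry the spread between these untreated libraries. The points share treatments and library totals, so the r values only describe the pattern.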

How the data were processed

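Strand-specific poly(A) RNA libraries were sequenced by the authors from A549 (10 libraries) and SUM159 (4 libraries). The deposited files hold raw read counts per gene, made by the authors with HISAT2 2.2.1 and HTSeq on GRCh38 per the submitters' processing notes. The annotation release and strand setting are not given in the sources used here. The 9 summary lines per file were left out of totals (reads assigned ambiguously were 3.55% to 4.21% of gene plus ambiguous reads). CPM used the total of all 60683 genes, as the study scaled by total. Symbols, positions and exon lengths came from GENCODE release 44, matched for 60370 identifiers, and promoter sequences from RefSeq (GRCh38.p14).

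Counts were tested with edgeR 4.0.16 in R 4.3.3 (filterByExpr, quasi-likelihood F test, Benjamini-Hochberg adjustment over all genes tested, threshold 0.05), with group means and no block. The 10 A549 libraries, the 4 SUM159 libraries, and all 14 for comparisons across lines were fitted separately. Standard errors are the log2 fold change divided by the root of F. The fit was checked on simulated counts with 200 changed genes. Alternatives were TMM scaling, DESeq2 1.42.0, no filter, a stricter filter (mean count 50 or more), fits of the compared groups alone, a replicate block and leaving out each library. An exact permutation test of 2 against 2 cannot go below p = 0.33 (two-sided).

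The members and lists were chosen with earlier results of these data known. Named from the lists were the 3 largest rises and 3 largest falls among called genes whose higher group had 10 CPM or more on average, in the A549 combination and in SUM159 given PF-06873600.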

Additional observations from a re-analysis of the deposited data

Results flagged for a closer look

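The response to PF-06873600, at the same dose and time, differed between the lines for 8 of the 9 transporters that could be read in both, by the interaction term of the fit over all 14 libraries (edgeR, adjusted over 17279 genes). The difference, SUM159 minus A549 on the log2 scale, was 4.01 for SLC43A1, 2.07 for SLC1A4, 1.39 for SLC7A2, 0.66 for SLC1A5 and 0.51 for SLC38A2. It was -2.54 for SLC7A5, -0.85 for SLC3A2 and -0.29 for SLC7A1, the last not called by DESeq2 (adjusted p = 0.0536). Over all genes 25.8% had a called positive and 27.2% a called negative difference. The line and its medium cannot be told apart.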

How the results depend on the processing

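With 2 libraries a group, the small A549 changes were limited by the spread of the untreated libraries. Of 1487 comparisons of a transporter's log2 value with the value reported, 1432 kept direction and side of the threshold, 22 lost the call, 17 gained one and 16 changed sign. None of these 16 was called as reported, and 2 were called with the new sign, SLC3A2 with indisulam and with PF-06873600 without untreated replicate 2. Palbociclib called 1310 genes higher and 1168 lower. DESeq2 gave 617 lower, and a fit of only the compared groups 543 higher and 406 lower. Leaving out a library gave 779 to 1729 higher and 522 to 1602 lower, lowest without palbociclib replicate 2, and 1 to 3 transporters higher. With indisulam TMM scaling, DESeq2 and the compared groups each left 1 transporter higher, the compared groups left 3 lower, DESeq2 called 2742 genes higher (4420 as reported), and leaving out a library gave 1 to 3 higher and 3 to 5 lower. The combination had 2 transporters higher without the filter and with the replicate block, and 1 to 2 when a library was left out, the same range as for the combination against palbociclib and for PF-06873600 in A549. Against indisulam 1 was higher with DESeq2, without the filter and in the compared groups, and 0 to 1 without a library, as for the interaction, where DESeq2 called 1494 genes lower (2281 as reported). The gene gained was SLC3A2, with SLC7A5 also for palbociclib; the cause was not tested.

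The sign of SLC3A2 with indisulam (0.01) was -0.073 with TMM scaling and -0.065 with DESeq2. Leaving out a library gave SLC3A2 -0.076 to 0.23 with palbociclib, -0.14 to 0.17 with indisulam (-0.04 without indisulam replicate 1), -0.057 to 0.249 for the interaction and -0.14 to 0.17 with PF-06873600. It gave SLC7A5 -0.043 to 0.154 with palbociclib and -0.073 to 0.124 for the interaction, SLC38A1 -0.086 to 0.142 with palbociclib, -0.11 to 0.12 with indisulam and -0.153 to 0.076 between the untreated lines, and SLC38A2 -0.001 to 0.073 with palbociclib.

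The replicate numbers were used as names of libraries only. The deviations of same-numbered libraries from their group means correlated at -0.133 to 0.0663 between untreated and treated groups of the same line. Such correlations cannot settle whether same-numbered libraries were paired. A replicate block changed 1 transporter call, that of SLC3A2 in the combination (0.18, adjusted p = 0.0368). For palbociclib the block gave 1258 genes higher and 1079 lower and the crossed pairing, added after seeing the data, 1556 and 1467.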
